A study of Mus musculus with 6 samples.

Results

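The cytosolic ribosomal protein genes were taken from the gene-level count table of an RNA sequencing experiment in mouse bone marrow-derived macrophages (BMDMs). A gene was a member if it was annotated as protein coding and its symbol was *Rpl* or *Rps* followed by a digit (*Rps6k* kinases left out), or *Rplp0*, *Rplp1*, *Rplp2* or *Rpsa*. This name rule used no measured value, and it found 92 members among 40481 genes. Of these, 77 encode the canonical proteins of the ribosome (46 of the large and 31 of the small subunit), 8 are paralogs of a canonical gene, 6 carry a pseudogene name (-ps) although the table calls them protein coding, and *Rps19bp1* encodes a binding partner of RPS19 that is not itself a ribosomal protein. The name rule misses some genes of the ribosome, among them *Fau* and *Rack1*, which are described separately.

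The series compared 3 wild-type libraries (label WT) with 3 libraries of macrophages from mice with a myelomonocytic deletion of *Scd2* (label Scd2-KO, here Scd2-m/-m). *Scd2* encodes stearoyl-CoA desaturase 2, an enzyme that puts the first double bond into saturated fatty acids. The Scd2-m/-m mice carried floxed *Scd2* alleles and a Cre recombinase transgene driven by lysozyme M, which is active in cells of the myelomonocytic lineage, so excision is directed to that lineage rather than to the whole animal. Whether the WT animals carried a floxed allele or the Cre transgene is not given in the labels, and neither is their strain. The study used adult mice of both sexes, and which of them gave each library is not given. All 6 cultures were grown from marrow of the tibia and femur in medium with CMG-conditioned supernatant for 5 to 6 days, received no stimulus, and gave poly(A)-selected libraries. The labels do not say whether replicates came from separate mice, so the p-values measure only the spread between these samples.

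A cytosolic ribosome joins a small subunit, which reads the mRNA, with a large subunit, which forms the peptide bond, and each ribosome needs its proteins in nearly equal numbers. Most ribosomal protein mRNAs begin with a C followed by a run of pyrimidines, the 5′ terminal oligopyrimidine (TOP) motif. LARP1 binds this motif and holds the mRNAs back from translation when the kinase complex mTORC1 is inactive, so the output of these genes is known to be set to a large extent at translation, which mRNA levels do not show. In macrophages, activation and growth factor signals are known to act on translation through the same kinase complex.

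The start sites of the members that changed are shown first, because the TOP motif is the feature that ribosomal protein genes are best known to share. RefSeq promoter windows on GRCm38.p6 were found for 57 of the 77 canonical members. *Rps14*, *Rps29*, *Rpl3* and *Rpl7* had no entry. Each line below gives 30 bases, 5′ to 3′ on the strand of the gene, with the longest unbroken run of C and T within 50 bases of the annotated start site in capitals. The first 3 genes rose in Scd2-m/-m macrophages, the next 7 fell, and *Rpl22* and *Rps19* are shown as members that did not pass the test.
Rpl22l1 (chr3:28805499-28805528, plus strand): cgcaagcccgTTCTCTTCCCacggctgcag
Rps2 (chr17:24720083-24720112, plus strand): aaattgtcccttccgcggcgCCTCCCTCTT
Rpl12 (chr2:32961732-32961761, plus strand): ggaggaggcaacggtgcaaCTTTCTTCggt
Rps15 (chr10:80292447-80292476, plus strand): cagcccgtaCTTCCTTTTCCgagtaaccgc
Rpl37a (chr1:72711275-72711304, plus strand): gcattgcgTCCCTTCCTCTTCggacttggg
Rpl37 (chr15:5116632-5116661, plus strand): gcgggggtgCTTTCTCTTCCggtctctttg
Rpl18 (chr7:45718062-45718091, plus strand): tcgcaggccgCTCTTTCCCCgcccactccg
Rpl7a (chr2:26910789-26910818, plus strand): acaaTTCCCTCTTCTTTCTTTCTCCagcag
Rpl7l1 (chr17:46782670-46782699, minus strand): gtcgaggcgggCCTCTCTaccccgcccggt
Rps13 (chr7:116334161-116334190, minus strand): tgagtggcgtcaCTTCCTgtgcggcttgat
Rpl22 (chr4:152325679-152325708, plus strand): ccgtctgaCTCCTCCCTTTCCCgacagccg
Rps19 (chr7:24884612-24884641, plus strand): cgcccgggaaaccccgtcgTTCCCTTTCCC

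The runs were 6 to 21 bases long in these windows, longest in *Rpl7a* and shortest in *Rps13*, and the run of *Rpl7l1*, a paralog, was 7 bases long. A run of at least 10 such bases lay within 50 bases of the annotated start in 39 of the 57 canonical members (68.4%), against 16.5% of the 10188 tested genes with a window. An annotated start at a C followed by 4 pyrimidines was found in 21.1% of the canonical members and 2.31% of all tested genes. The run did not always lie at the annotated start, so the capitals do not by themselves mark a TOP motif. Among the lines shown, only the runs of *Rpl22l1* and *Rpl18* began within 1 base of it. The run began 25 bases downstream in *Rps15*, and 39 or 40 bases downstream in *Rps2*, *Rpl12* and *Rps19*. In *Rpl7a* it began 14 bases upstream and ran across the start. In *Rpl22* and *Rpl7l1* it began 39 and 32 bases upstream and ended before the start. The annotated start is that of the RefSeq window, 1 position per gene, and was not measured in these cells. The gene coordinates given elsewhere come from GENCODE and can start at another position. The GENCODE gene start lies shortly before the run in *Rps15* (chr10:80292453) and inside it in *Rpl37* (chr15:5116645) and *Rpl37a* (chr1:72711290). Of the other motifs searched over the 300 bases of each window, CTCTTTCC (on the strand of the gene; part of the longer C and T runs where it lies inside them) occurred in 12.3% of canonical members and 1.59% of tested genes. CCGGAAG, searched on both strands, occurred in 40.4% and 18.8%, and AAGATGG on both strands in 14.0% and 7.49%. CACGTG, the E-box, was found in 8.77% of canonical members and 10.2% of tested genes. Among canonical members that fell, 5 of the 6 with a window had a run of at least 10 bases, and among those that rose 1 of 2 did. By the stricter measure, a C at the RefSeq start followed by 4 pyrimidines, 0 of these 6 and 0 of these 2 passed. This count depends on the annotation. At the GENCODE gene start, *Rpl37a* and *Rpl37*, which fell, read a C followed by 4 pyrimidines, and *Rps15* did not. For the others of these 6 and these 2 the GENCODE gene start lies outside the bases shown and was not read.

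Gene counts per library totalled 46285176 at the least and 57629638 at the most, and the members took 3.57% to 3.87% of them. *Scd2* itself measured 66.9, 77.8 and 62.7 CPM (counts scaled to a common TMM-adjusted library size) in WT and 59.5, 38.0 and 39.8 CPM in Scd2-m/-m libraries. All 3 Scd2-m/-m libraries were below WT, with a mean at 66.2% of the WT mean, but the log2 difference of -0.59 did not pass the test (FDR 0.10, edgeR), so the targeted gene gave no clear check of the labels. All 10 macrophage markers were tested, their summed level was 37911 to 38997 CPM in WT and 21998 to 22723 CPM in Scd2-m/-m libraries, and 4 of them fell and 1 rose. Most of the drop in the sum was *Lyz2*, the lysozyme M gene, which fell from 22751 ± 584 to 9029 ± 357 CPM (SD, n = 3; log2 fold change -1.33, FDR 6.42e-08, edgeR), and without it the sum was 15769 to 15818 CPM in WT and 13156 to 13669 CPM in Scd2-m/-m libraries. All 10 cell division genes rose, from a summed 56.3 to 65.0 CPM to 159 to 168 CPM. Of 10 neutrophil markers 7 were tested, 4 rose and 1 fell, and *Ly6g* had no counts in WT. The summed level of these markers was 167 to 177 CPM in WT and 146 to 173 CPM in Scd2-m/-m libraries. Nearly all of it came from *Csf3r*, the marker that fell (mean 164 to 135 CPM). The markers that rose were *S100a8* (mean 4.08 to 7.98 CPM), *S100a9* (2.79 to 8.74 CPM), *Mpo* (0.544 to 1.05 CPM) and *Ltf* (0.862 to 2.36 CPM). Summed protein-coding markers of B cells (2.14 to 3.77 against 5.33 to 7.02 CPM), dendritic cells (1.31 to 1.79 against 2.13 to 3.37 CPM), mast cells (0.694 to 0.767 against 1.23 to 1.58 CPM), erythroid cells (1.09 to 1.65 against 1.69 to 2.15 CPM) and fibroblasts (0.787 to 2.20 against 1.41 to 2.06 CPM) were low. *Ighm*, an immunoglobulin gene of the B cell list that the table does not class as protein coding, measured 51.9 to 116 CPM in WT and 77.3 to 110 CPM in Scd2-m/-m libraries (log2 0.03, FDR 0.97). T cell markers summed to 27.9 to 44.5 CPM in WT and 34.8 to 37.7 CPM in Scd2-m/-m libraries, nearly all from *Cd4*, and *Cd3g* and *Cd8a* had no counts in WT. The part of these differences in the ribosomal protein results was not tested. In such bulk samples a change in the mix of cells and a change in RNA per cell cannot be told apart.

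The summed level of ribosomal protein transcripts differed between genotypes by less than the spread of the WT libraries. Summed over the 92 members, the level was 39516, 36382 and 36009 CPM in WT replicates 1 to 3 and 35893, 36239 and 35838 CPM in the Scd2-m/-m replicates. WT replicate 1 stood above the other 5 libraries, which lay close together. The WT mean was 37302 ± 1926 CPM and the Scd2-m/-m mean 35990 ± 217 CPM (SD over 3 libraries), so the Scd2-m/-m mean was 96.5% of the WT mean and the difference was smaller than the WT standard deviation. The large subunit genes summed to 96.4% and the small subunit genes to 96.5% of their WT means. WT replicate 3 lay within the range of the Scd2-m/-m libraries and WT replicate 2 just above it. WT replicate 1 was the highest of the 3 WT libraries for 66 of the 77 canonical members and the highest of all 6 for 39 of them.

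**Figure D1:**
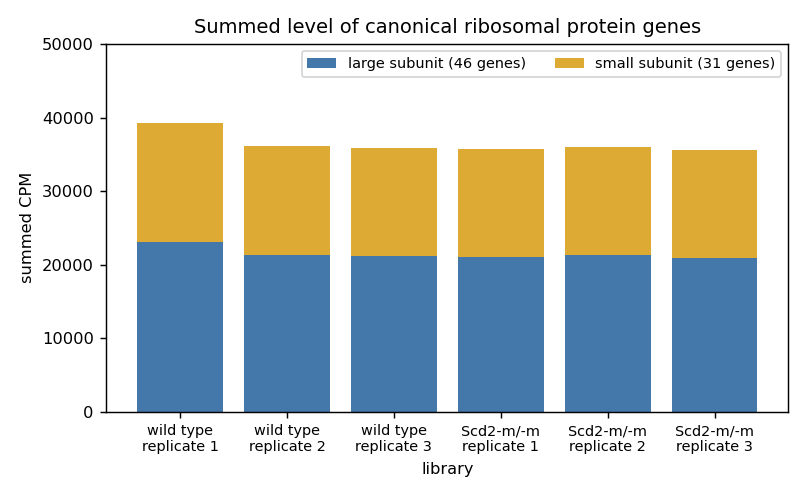
Summed CPM of the canonical ribosomal protein genes (vertical axis) in each of the 6 libraries (horizontal axis), stacked by subunit. WT replicate 1 is the highest at 39304 CPM, and the other 5 libraries lie between 35627 and 36177 CPM.

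Single members moved in both directions by small amounts. With edgeR's quasi-likelihood test and Benjamini-Hochberg adjustment over all genes tested (FDR below 0.05), 14 of the 88 members tested changed, 4 higher and 10 lower, which is 15.9% of them. Over all 14778 genes tested 17.5% changed, 9.65% higher and 7.84% lower, so the share among the members was near that of genes in general. The median log2 fold change of the members was 0.0018, beside 0.0039 over all genes tested. No member passed the study's threshold of an absolute log2 fold change above 2, which 0.663% of all genes tested passed together with the FDR. Among genes of at least 100 CPM, 12 of 76 members changed (15.8%) and 26.4% of all 1978 such genes did. By library, 25 members had groups that did not overlap, 8 above and 17 below WT, which is 28.4% beside 34.9% of all genes tested. Of the 46 large subunit genes 2 rose and 5 fell, and of the 31 small subunit genes 1 rose and 4 fell. Scaling by the members' own total in place of TMM, a choice made after seeing the data, turned the split of calls to 8 higher and 4 lower (15.7% of all genes called) and moved the median of the members to 0.05. Without WT replicate 1, the library with the highest sum, 13 members were called (15.3% of all genes), 7 higher and 6 lower, and 10 of them were among the 14. The number of members called fell to 9 without WT replicate 2 (9.83% of all genes called), 7 without Scd2-m/-m replicate 2 (9.53%) and 9 without Scd2-m/-m replicate 3 (13.4%). It was 18 with DESeq2 (18.3% of all genes), 24 with voom quality weights (30.5%), 20 with no filter beyond 1 count (11.8%) and 17 with a replicate block (20.1%).

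**Figure D2:**
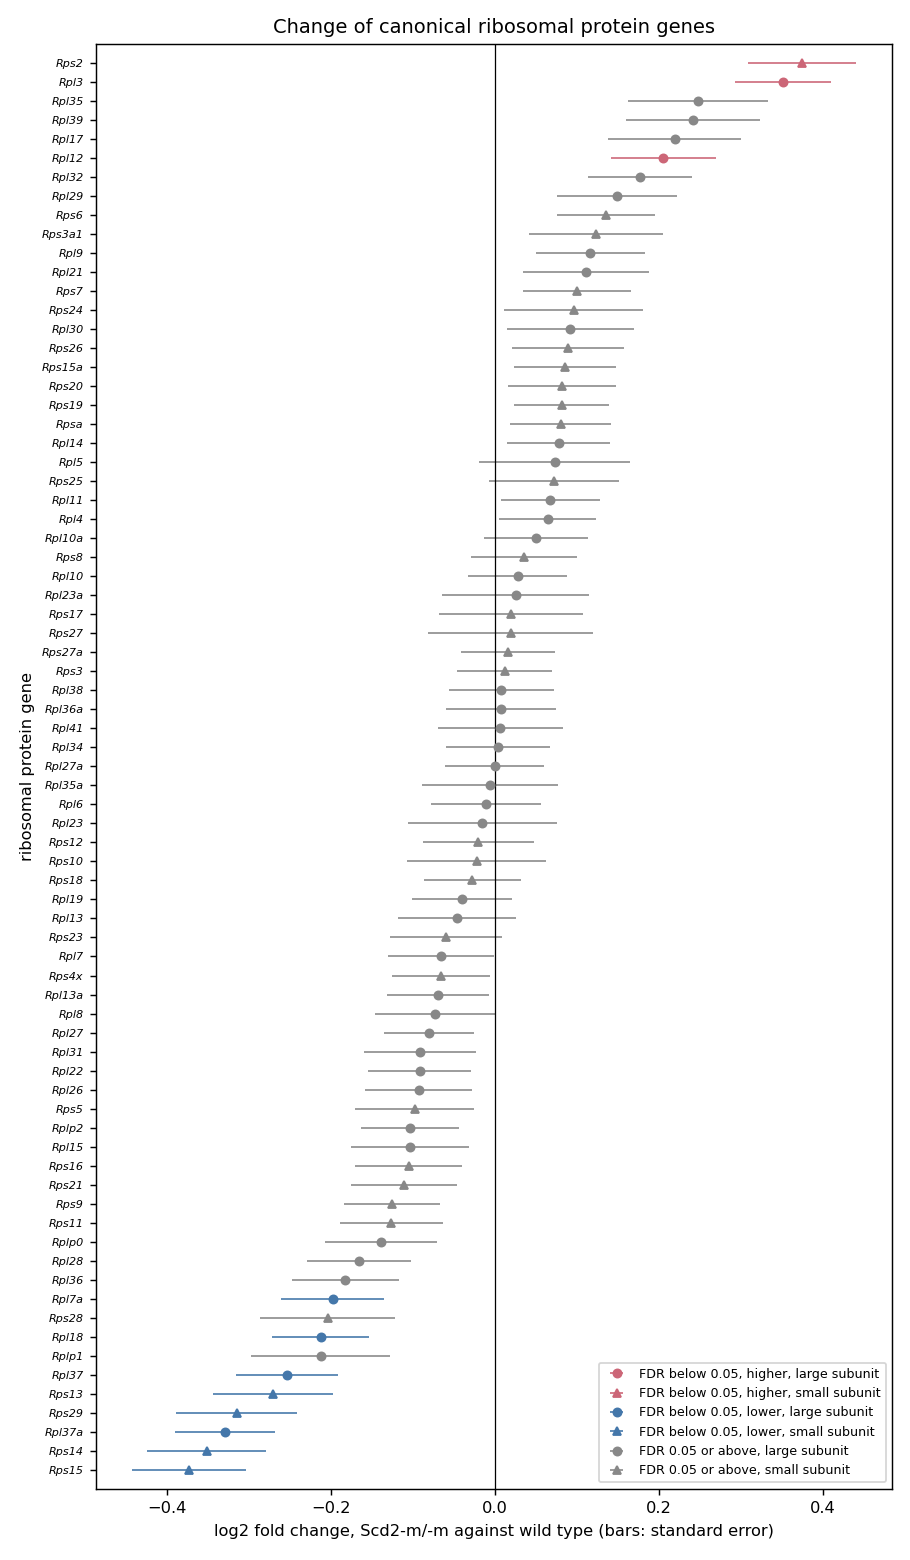
Log2 fold change of the canonical ribosomal protein genes, Scd2-m/-m against WT, with its standard error, ordered by size and coloured by whether the FDR was below 0.05 (circles, large subunit; triangles, small subunit; not every gene is drawn, and *Rpl24*, with 8 to 18 counts a library, is left out). Most genes lie near 0, with *Rps2* at 0.37 and *Rps15* at -0.37 at the ends.

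The largest change was the rise of *Rpl22l1* (ENSMUSG00000039221, chr3:28805436-28807424), the paralog of *Rpl22* and a protein that can take its place in the large subunit. *Rpl22l1* stood at 6.14, 5.77 and 4.66 CPM in WT and at 10.8, 11.2 and 12.3 CPM in Scd2-m/-m libraries. The groups were well apart, and the Scd2-m/-m mean was 207% of the WT mean, a log2 fold change of 1.05 (SE 0.12, FDR 3.69e-05). *Rpl22*, which binds RNA and is known to hold down the expression of *Rpl22l1*, measured 152, 144 and 145 CPM in WT and 128, 141 and 146 CPM in Scd2-m/-m libraries, and its log2 difference of -0.09 did not pass the test (FDR 0.361). The *Rpl22* libraries of the groups overlapped, Scd2-m/-m replicate 3 being above WT replicates 2 and 3. *Rpl22l1* took 3.87%, 3.84% and 3.11% of the counts of the pair in WT and 7.81%, 7.38% and 7.72% in Scd2-m/-m libraries. The Wilson 95% intervals, which cover counting error only, reached at most 4.32% in WT and began at no less than 6.82% in Scd2-m/-m libraries. *Rpl22* thus remained the main source of transcripts of the pair in every library. Of the 50-base words of the *Rpl22l1* transcript 57.3% also occur in other genes, nearly all of them in *Gm15421*, which had 0.0198 CPM in WT and no counts in Scd2-m/-m libraries.

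**Figure D3:**
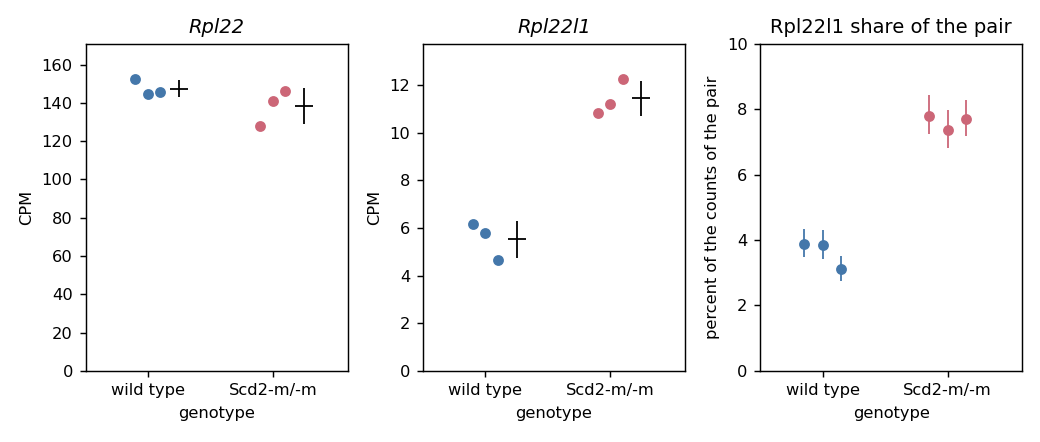
CPM of *Rpl22* (left) and *Rpl22l1* (middle) in each library, with mean and SD beside the points (n = 3), and the percent of the pair's counts on *Rpl22l1* (right) with Wilson 95% intervals, for WT (blue) and Scd2-m/-m (red). *Rpl22l1* is near 5.53 CPM in WT and 11.4 CPM in Scd2-m/-m libraries, while the *Rpl22* points overlap.

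*Rps2* and *Rpl3* followed. *Rps2* (ENSMUSG00000044533, chr17:24718116-24721929) encodes a protein at the mRNA entry of the small subunit, and measured 349, 314 and 328 CPM in WT and 447, 438 and 399 CPM in Scd2-m/-m libraries. The groups did not overlap, with a log2 fold change of 0.37 (SE 0.07, FDR 0.00145). *Rpl3* (ENSMUSG00000060036, chr15:80077791-80091868), whose protein reaches to the peptidyl transferase centre, measured 321, 313 and 320.3 CPM in WT and 410.5, 419 and 388 CPM in Scd2-m/-m libraries. The WT libraries differed by few CPM, every Scd2-m/-m library was higher, and the log2 fold change was 0.35 (SE 0.06, FDR 8.86e-04). *Rps3*, the neighbour of *Rps2* at the mRNA entry, stood at 411 ± 13.3 CPM in WT and 415 ± 2.74 CPM in Scd2-m/-m macrophages (SD, n = 3; FDR 0.918). *Rpl3l*, the paralog of *Rpl3* known from muscle, had 4 to 8 counts a library and was not tested.

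Much of the sequence of both genes occurs elsewhere in the annotation, and the sources used here do not give how the authors' counting treated such reads. Of 50-base words, 85.6% of *Rpl3* and 71.3% of *Rps2* occur in other genes, and the median over the canonical members was 48.4% (range 0 to 98.6%). The *Rpl3-ps1* row went from 9.71 to 12.3 CPM (log2 0.34, FDR 0.0512) and *Rps2-ps10* from 3.20 to 4.32 CPM (log2 0.44, FDR 0.0572), neither passing the test. Adding the rows named with -ps to their parent genes left the same 14 members called, with 17.7% of all genes called. On the opposite strand of *Rps2*, *Snhg9* had 0.139 to 0.325 CPM. Whether the counting used strand is likewise not given.

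The clearest falls were those of *Rps15*, *Rps14*, *Rpl37a* and *Rps29*. *Rps15* (ENSMUSG00000063457, chr10:80292453-80294114), a protein of the small subunit head, measured 693, 653 and 662 CPM in WT and 558, 519.6 and 473 CPM in Scd2-m/-m libraries. Every Scd2-m/-m library lay below every WT library, at 77.2% of the WT mean and a log2 fold change of -0.37 (SE 0.07, FDR 0.00212). *Rps14*, whose human counterpart is deleted in the 5q minus form of myelodysplastic syndrome, measured 594, 561 and 609 CPM in WT and 499, 466 and 417 CPM in Scd2-m/-m libraries. Again the groups did not overlap (log2 fold change -0.35, SE 0.07, FDR 0.00394). *Rpl37a* (ENSMUSG00000046330, chr1:72711290-72713813), a zinc-finger protein of the large subunit, measured 470.5, 462 and 486 CPM in WT and 373, 397 and 360.1 CPM in Scd2-m/-m libraries, with a log2 fold change of -0.33 (SE 0.06, FDR 0.00209). *Rps29* (ENSMUSG00000034892, chr12:69157722-69159186), another small zinc-binding protein, measured 1036, 926 and 957 CPM in WT and 829.7, 806 and 711 CPM in Scd2-m/-m libraries. Scd2-m/-m replicate 3 was the lowest library for each of *Rps15*, *Rps14*, *Rpl37a* and *Rps29*, and for *Rps29* the log2 fold change was -0.32 (SE 0.07, FDR 0.0092).

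These 4 genes, with *Rpl22l1*, *Rps2* and *Rpl3*, are the 7 members that were called under each of the 19 alternatives run, including those that left out 1 library, and no others had an FDR below 0.01, which 9.01% of all genes tested had. The other called members described here each lost the call when some single libraries were left out. *Rpl12*, which rose, carries the P stalk and measured 357, 335 and 329 CPM in WT and 393, 415 and 369 CPM in Scd2-m/-m libraries (log2 fold change 0.21, FDR 0.0397). Its groups did not overlap, but the call was lost without WT replicate 2 (FDR 0.168), WT replicate 3 (0.113), Scd2-m/-m replicate 1 (0.0694) or Scd2-m/-m replicate 2 (0.22). *Rps13*, *Rpl37*, *Rpl7l1*, *Rpl18* and *Rpl7a* fell, with log2 fold changes from -0.27 to -0.20 and an FDR between 0.012 and 0.0429. All 5 had libraries that did not overlap between groups, and all 5 lost the call when libraries were scaled by the members' total (FDR 0.0513 to 0.178). *Rpl37*, which has a zinc finger like *Rpl37a*, was the firmest of them, at 606, 555 and 547 CPM in WT and 469.7, 477 and 486 CPM in Scd2-m/-m libraries, and lost its call only without Scd2-m/-m replicate 2 (FDR 0.0738) among the libraries left out. *Rps13* lost it without WT replicate 3 (FDR 0.0586), Scd2-m/-m replicate 2 (0.0739) or Scd2-m/-m replicate 3 (0.0733). *Rpl7l1* lost it without WT replicates 1 or 2 or Scd2-m/-m replicates 2 or 3, *Rpl7a* without any of these or without Scd2-m/-m replicate 1, and *Rpl18* without any library except Scd2-m/-m replicate 1, with an FDR of at most 0.132 in these fits. *Rpl12* and *Rpl18* overlap *Lrsam1* and *Sphk2* on the opposite strand, which measured 26.1 and 185 CPM in WT and 26.5 and 170 CPM in Scd2-m/-m libraries and did not pass the test (FDR 0.881 and 0.325).

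**Figure D4:**
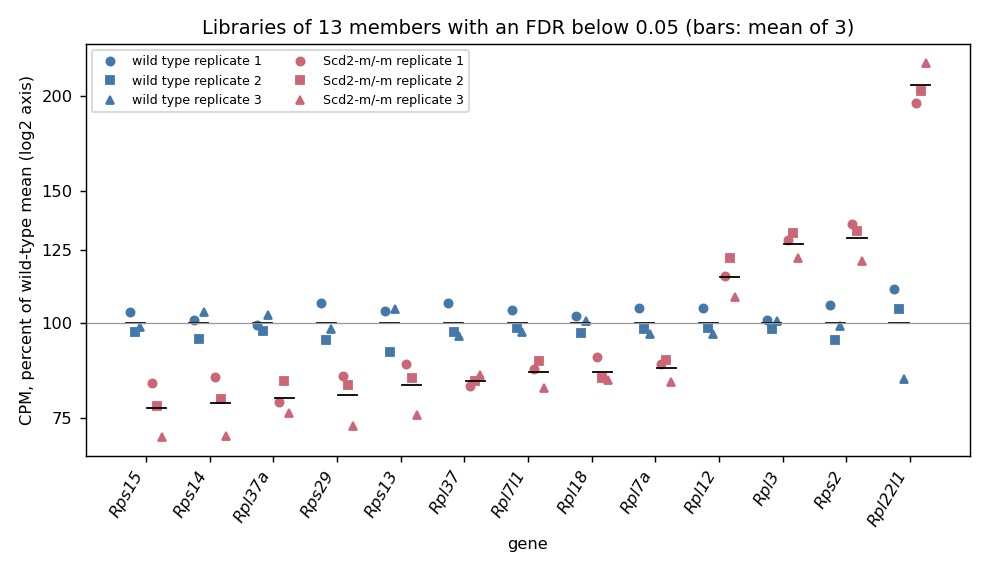
CPM of each library as a percent of the WT mean (vertical axis, log2 scale) for 13 of the members with an FDR below 0.05 (horizontal axis), WT in blue and Scd2-m/-m in red, with bars at the mean of 3 libraries. *Rpl22l1* lies near 207%, *Rps2* near 130% and *Rpl3* near 128%, and the 9 lower genes drawn lie between 77.2% and 87.2%.

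Of the 12 canonical members called, the lists by place in the ribosome held *Rps2* and *Rpl12*. In the P stalk, which recruits and activates the translation factors with GTPase activity, *Rpl12* rose while *Rplp0*, *Rplp1* and *Rplp2* had log2 differences of -0.14, -0.21 and -0.10 that did not pass the test (FDR 0.189, 0.106 and 0.268). *Rplp1* measured 2416, 2158 and 2439 CPM in WT and 2248, 2009 and 1794 CPM in Scd2-m/-m libraries, and its groups overlapped. *Rpl5* and *Rpl11*, which join the 5S rRNA in the particle that also binds MDM2, both had a log2 difference of 0.07 (FDR 0.647 and 0.494). *Rpl5* measured 412, 381 and 363 CPM in WT and 357, 387 and 471 CPM in Scd2-m/-m libraries, which lie on both sides of WT.

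None of 8 genes of the peptide exit tunnel and its mouth passed the test, which 17.5% of all genes tested did. The highest of these were *Rpl35* (log2 0.25, FDR 0.0652), *Rpl39* (0.24, FDR 0.0579) and *Rpl17* (0.22, FDR 0.0797). *Rpl39* measured 188, 198 and 201 CPM in WT and 202, 229 and 262 CPM in Scd2-m/-m libraries, which just did not overlap. *Rpl35* passed without WT replicate 1 (log2 fold change 0.35, FDR 0.00389), *Rpl17* without WT replicate 1 (FDR 0.0278) or Scd2-m/-m replicate 1 (FDR 0.0375), and *Rpl39* without Scd2-m/-m replicate 1 (FDR 0.00745).

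Of 6 listed members whose human counterparts are tied to Diamond-Blackfan anaemia or the 5q minus syndrome, *Rps14* changed (16.7%, beside 17.5% of all genes tested). The list is not complete, and *Rps29* and *Rpl18*, whose human counterparts have also been tied to that anaemia, fell as given above. *Rps19*, the gene most often mutated in the disease, stood at 181 ± 6.23 CPM in WT and 192 ± 7.15 CPM in Scd2-m/-m macrophages (SD, n = 3; FDR 0.378). *Rps10* and *Rps26* had log2 differences of -0.02 and 0.09 (FDR 0.896 and 0.418). None of 7 members with described roles away from the ribosome or in macrophages passed the test, which 17.5% of all genes tested did. Among these, *Rpl13a*, part of the interferon-induced complex that silences inflammatory mRNAs in myeloid cells, stood at 543 ± 22.0 CPM in WT and 517 ± 21.3 CPM in Scd2-m/-m macrophages (FDR 0.494). *Rps6*, the substrate of S6 kinase, measured 271, 255 and 246 CPM in WT and 275, 288 and 285 CPM in Scd2-m/-m libraries, groups that did not overlap at a log2 difference of 0.14 (FDR 0.142).

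Several members serve as reference genes for quantitative PCR, and 1 of the 6 listed, *Rps29*, changed (16.7%, beside 17.5% of all genes tested). *Rplp0*, the most used of them, measured 1219, 1141 and 1109 CPM in WT and 1097, 1072 and 982 CPM in Scd2-m/-m libraries, all below WT by a log2 difference of -0.14 that did not pass the test. *Rps18* stood at 357 ± 10.7 and 350 ± 11.8 CPM and *Rpl19* at 381 ± 14.4 and 371 ± 16.8 CPM in WT and Scd2-m/-m libraries (SD, n = 3; log2 differences -0.03 and -0.04). The signs of both flipped when libraries were scaled by the members' total, to 0.02 and 0.01. *Rpl32* measured 393, 379 and 369 CPM in WT and 399.9, 447 and 442 CPM in Scd2-m/-m libraries, which did not overlap (log2 0.18, FDR 0.073).

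The members differed far more from each other than between genotypes. Per kilobase of the principal transcript, the median canonical member stood at 477.5 RPKM in WT, and 80% of them lay between 205 and 929 RPKM. The highest were *Rplp1* (4684 ± 313 RPKM in WT and 4042 ± 456 in Scd2-m/-m libraries), *Rps28* (2739 ± 341 and 2378 ± 67.3 RPKM) and *Rps29* (2495 ± 145 and 2006 ± 161 RPKM; SD, n = 3). *Rps28* and *Rps29* did not differ beyond their spread in WT. Measured over all annotated exons of each gene in place of the principal transcript, a choice made after seeing the data, the median was 238 RPKM and the order changed. *Rplp1* was still the highest at 4684 RPKM, followed by *Rps29* at 1404 and *Rps15* at 1062 RPKM, and *Rps28* stood at 625 RPKM. The lowest tested members were *Rpl39l* at 0.198 RPKM, *Rpl24* at 0.394 RPKM and *Rpl10-ps3* at 1.86 RPKM in WT. *Rpl24* encodes a canonical protein of the large subunit, yet its row held 8 to 18 counts a library, and the next lowest canonical member stood at 42.6 RPKM. The annotation places *Gm28037* on the same strand over *Rpl24*, 69.4% of the 50-base words of *Rpl24* occur in it, and it had no counts in any library. The part of this overlap in the low count of *Rpl24* was not tested.

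Replicates of the canonical members had a median coefficient of variation of 5.76% in WT and 4.78% in Scd2-m/-m libraries. Across these 77 members, which share libraries, the log2 fold change went with transcript length at a Pearson's r of 0.17, with GC content at -0.16 and with the share of sequence found in other genes at 0.15, weak relations given as a description only.

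**Figure D5:**
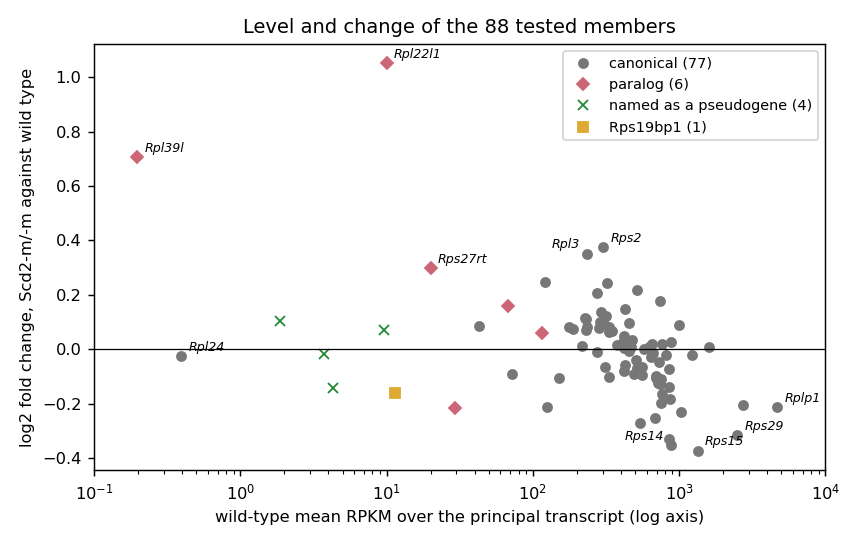
WT mean RPKM over the principal transcript (horizontal, log axis) against log2 fold change of Scd2-m/-m over WT (vertical) for the 88 tested members, by kind. The canonical members crowd around 477.5 RPKM near a change of 0, and *Rpl22l1* stands apart at 10.0 RPKM and a log2 fold change of 1.05.

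Of the 8 paralogs 6 were tested, and besides the rise of *Rpl22l1* only *Rpl7l1* changed (33.3% of those tested, beside 17.5% of all genes tested). *Rpl7l1*, whose protein works in the assembly of the large subunit, measured 79.5, 75.3 and 74.3 CPM in WT and 66.5, 68.1 and 62.8 CPM in Scd2-m/-m libraries (log2 fold change -0.22, FDR 0.0249). Its share of the counts of the pair with *Rpl7* was 17.5% ± 0.185 in WT and 16.1% ± 1.18 in Scd2-m/-m libraries (SD, n = 3), and *Rpl7* itself stood at 359.9 ± 16.9 and 344 ± 20.2 CPM (FDR 0.542). *Rpl36al* took 21.3% ± 0.685 and 21.9% ± 0.637 of the counts it shares with *Rpl36a*, with overlapping libraries. *Rps27l*, a p53-induced paralog of *Rps27*, measured 33.7, 34.7 and 32.5 CPM in WT and 35.2, 40.9 and 36.8 CPM in Scd2-m/-m libraries, which did not overlap, but did not pass the test (log2 0.16, FDR 0.141). *Rps27*, its parent, was the member whose libraries spread with Scd2-m/-m replicates on both sides of WT, at 277, 263 and 254 CPM in WT and 224, 268 and 313 CPM in Scd2-m/-m libraries. *Rps27rt* stood at 7.49 ± 1.30 and 9.19 ± 2.50 CPM (FDR 0.339). *Rpl39l* had 0 to 20 counts a library (FDR 0.559), and *Rpl10l*, known from the testis, had 2 counts in WT replicate 1 and none elsewhere.

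The 6 members with a pseudogene name had low counts or none. Of these, 4 were tested, with 55 to 277 counts a library, and none passed, with log2 differences from -0.14 to 0.10. *Rpl9-ps1* had no counts in WT and 2 to 8 in Scd2-m/-m libraries, and *Rpl36-ps4* had none in any library, where 3 counts would be 0.0516 to 0.065 CPM. A further 245 rows outside the members carry an *Rpl* or *Rps* name with -ps. They summed to 491 to 557 CPM, 116 were tested and 1 fell (0.862%, beside 17.5% of all genes tested). *Rps19bp1* stood at 9.57 CPM in WT and 8.55 CPM in Scd2-m/-m libraries (FDR 0.447).

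Of the ribosomal proteins outside the name rule, *Fau* fell. *Fau*, whose product is cut into the small subunit protein eS30 and a ubiquitin-like protein, measured 640.4, 600.2 and 573 CPM in WT and 500.4, 514 and 466 CPM in Scd2-m/-m libraries, with a log2 fold change of -0.29 (SE 0.07, FDR 0.00743). *Rack1*, a signalling scaffold on the small subunit, had a log2 difference of 0.00 (FDR 0.992). The ubiquitin fusion *Rps27a*, a member, stood at 296 ± 3.02 and 299 ± 11.4 CPM (FDR 0.887).

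Mitochondrial ribosomal protein genes, which serve a separate ribosome, gave a comparison of like function. Of 76 tested, 5 rose and 3 fell (10.5%, beside 17.5% of all genes tested), with a median log2 fold change of 0.04. Their summed level was 1797 ± 49.4 CPM in WT and 1805 ± 34.8 CPM in Scd2-m/-m macrophages (SD, n = 3).

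Among the listed genes that share the TOP motif with ribosomal protein mRNAs or act on ribosomal proteins and ribosomes, 3 of 54 rose and 8 fell (20.4%, beside 17.5% of all genes tested). Of 19 TOP mRNAs other than ribosomal proteins 2 changed (10.5%), both higher, and their median log2 fold change was -0.03. *Vim*, the intermediate filament vimentin, rose from 1962 ± 258 to 2856 ± 177 CPM (log2 fold change 0.54, FDR 9.2e-04), and *Hnrnpa1*, a splicing factor, from 111 ± 11.0 to 136 ± 6.98 CPM (0.29, FDR 0.0135). The translation elongation factors *Eef1a1* and *Eef2* had log2 differences of -0.06 and 0.04 (FDR 0.581 and 0.726). The call of *Hnrnpa1* was lost without WT replicates 2 or 3 or Scd2-m/-m replicate 2.

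Of 16 genes of mTORC1 and its control of these mRNAs 3 fell and none rose (18.8%, near the 17.5% of all genes tested), with a median log2 fold change of -0.07. *Larp1*, which binds the TOP motif, measured 164, 165 and 169 CPM in WT and 145, 133 and 137 CPM in Scd2-m/-m libraries, which did not overlap (log2 fold change -0.26, FDR 0.00613). *Sesn2*, a leucine sensor that restrains mTORC1, had a log2 fold change of -0.34 (FDR 0.0136), and *Mlst8*, a subunit of the complex, one of -0.32 (FDR 0.0193). *Mtor* and *Rptor* had log2 differences of -0.12 and -0.08 (FDR 0.224 and 0.432). Leaving out 1 library ended the call of *Larp1* without Scd2-m/-m replicate 2, of *Sesn2* without WT replicate 3 or Scd2-m/-m replicate 3, and of *Mlst8* without WT replicate 2 or Scd2-m/-m replicate 3, and scaling by the members' total ended those of *Larp1* (FDR 0.0551) and *Mlst8* (FDR 0.066).

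Of 8 chaperones that guard newly made ribosomal proteins 3 fell and none rose (37.5%, beside 17.5% of all genes tested), with a median log2 fold change of -0.21. *Tsr2*, the chaperone of RPS26, fell from 7.67 ± 0.494 to 5.55 ± 0.0278 CPM (log2 fold change -0.47, FDR 0.00847). *Grwd1*, the chaperone of RPL3, fell from 8.21 ± 1.62 to 5.28 ± 0.786 CPM (-0.64, FDR 0.00935), while *Rpl3* itself rose as given above. *Rrs1*, which brings the 5S particle to the ribosome, had a log2 fold change of -0.32 (FDR 0.0303), a call lost without WT replicates 1 or 2 or Scd2-m/-m replicates 1 or 2, and also with length and GC offsets or the members' total as library size (FDR of at most 0.0799). The clients *Rps26*, *Rpl5* and *Rpl11* did not pass the test.

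Of 8 genes of ribosome quality control and recycling 2 fell and none rose (25%, beside 17.5% of all genes tested). *Usp10*, which removes ubiquitin from stalled small subunits, measured 28.0, 25.2 and 23.0 CPM in WT and 19.2, 19.1 and 18.7 CPM in Scd2-m/-m libraries (log2 fold change -0.42, FDR 0.00252). *Zfp598*, which marks collided ribosomes with ubiquitin, had a log2 fold change of -0.23 (FDR 0.0331), lost without WT replicates 1 or 2 or Scd2-m/-m replicates 2 or 3 and with the members' total as library size (FDR 0.15). Of 3 genes of the p53 response to unassembled ribosomal proteins 1 rose (33.3%, beside 17.5% of all genes tested). This was *Mdm2*, the ubiquitin ligase that the 5S particle binds, which went from 89.9 ± 3.46 to 106 ± 3.85 CPM (log2 fold change 0.24, FDR 0.0117). Its call was lost without Scd2-m/-m replicate 2 (FDR 0.0901). *Trp53* and *Cdkn1a* had log2 differences of 0.05 and -0.13 (FDR 0.647 and 0.244).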

How the data were processed

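RNA was sequenced from 3 wild-type and 3 Scd2-m/-m BMDM cultures, 1 poly(A)-selected library each, grouped by the genotype in the labels. The authors aligned reads with STAR to the Ensembl GRCm38 assembly, and the values they deposited are raw gene counts. How these were counted (tool, strand, reads that match several genes) is not given in the sources used. A table of the authors' own comparison (log2 fold changes, p-values, log2 CPM) was not used.

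Of 40757 rows, 276 repeated a gene and were removed. Counts were tested with edgeR 4.0.16 (filterByExpr, TMM factors of 0.979 to 1.02, robust glmQLFit, glmQLFTest, two-sided) run in R 4.3.3 with statmod 1.5.0 and limma 3.58.1, with Benjamini-Hochberg adjustment (FDR) over all 14778 genes tested. Of the members, 88 passed the filter. *Rpl3l*, *Rpl10l*, *Rpl9-ps1* and *Rpl36-ps4* did not. The scripts were tested on simulated data. CPM and RPKM were computed from the counts, RPKM over the length of the principal GENCODE transcript. Replicates of a group differed by more than sampling noise (chi-square per gene 10.4 to 31.4). Whether 1 deposited count is 1 read or 1 read pair is not known, and intervals and floors cover counting error only.

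The members, gene lists and rules were chosen with earlier results of these data known. The text names the called members (up to 10 in each direction), both members of each paralog pair with counts, the 3 highest and 3 lowest tested members per length, the members of the role lists, *Scd2*, *Fau* and *Rack1*, and called genes of the other lists. *Rpl35*, *Rpl39*, *Rpl17* and the further genes given with values but no call were named after their values were seen. Some genes that the rule covers are not reported here. Alternatives were other scaling factors, limma-voom (also with quality weights), DESeq2 1.42.0, other filters, halved counts, length and GC offsets, the replicate block, each library left out, and 3 added after seeing the data (the members' total as library size, -ps rows added to the parent, and all exons as length).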

Additional observations from a re-analysis of the deposited data

How the results depend on the processing

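Each of the 14 calls kept its direction under all 19 alternatives, and 7 stayed called under all of them. The count of members called was 24 (11 higher, 13 lower) with voom quality weights, 20 with no filter beyond 1 count, 18 with DESeq2, 12 scaled to the members' total, 7 at an FDR below 0.01, and 7 to 16 with 1 library left out (7 higher and 6 lower without WT replicate 1). Over all genes, 4507 were called with voom quality weights and 1440 to 2567 with 1 library left out. The median level of canonical members was 238 RPKM over all exons, the lengths being larger. The cause of the other shifts was not tested. Same-numbered replicates did not deviate together (correlations of 0.053, -0.0196 and 0.0398). The labels do not say whether they share a day or preparation, and these correlations cannot settle it. With the replicate block 17 members and 2974 genes were called, beside 14 members and 2585 genes without it. Among the 44 members followed under each alternative, directions turned only for members that were not called, with a log2 difference of at most 0.10 in size. With length and GC offsets, *Rpl10* was at -0.0017, *Rpl36a* at -0.0313, *Rps10* at 0.0393 and *Rps18* at 0.0018. With quality weights, *Rpl10-ps3* was at -0.14 and *Rps18* at 0.0231. Scaled to the members' total, *Rpl19* was at 0.011, *Rpl24* at 0.0164, *Rps10* at 0.0328 and *Rps18* at 0.0223, and with voom *Rpl24* was at 0.0099. With 1 library left out, log2 differences ranged from -0.0618 to 0.353 for *Rpl10-ps3*, -0.287 to 0.143 for *Rpl24*, -0.0376 to 0.0576 for *Rpl36a*, -0.0414 to 0.0631 for *Rpl38*, -0.049 to 0.156 for *Rpl5*, -0.122 to 0.0711 for *Rps10*, -0.106 to 0.133 for *Rps27* and -0.0039 to 0.0386 for *Rps3*. Depth limits *Rpl24*, *Rpl39l*, *Rpl3l*, *Rpl10l*, *Rpl9-ps1* and *Rpl36-ps4*, which had at most 20 counts a library.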
